A study of Sus scrofa with 12 samples.

Results

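The data described here are RNA-seq profiles of jejunum, before and after weaning, from piglets of sows that received resveratrol (a polyphenol of grape and other plants) at 300 mg/kg of diet. They comprise 6 of the 12 libraries of the series. The 3 sucking piglets were taken at 21 days of age, on the day of weaning (labelled Weaning-Res), and the 3 weaned piglets at 28 days of age, 7 days after weaning (labelled Post-weaning-Res). All 6 came from sows bred to pooled Landrace semen and given a corn and soybean meal diet with resveratrol from early gestation to the end of lactation, and piglets had been exchanged only between sows on that diet. By the labels, the sows left at weaning and the piglets stayed in their pens, whereas the study's methods give a different breed and a move to a nursery, and which account holds for these piglets is not settled. The other 6 libraries are piglets of the same ages from sows on the basal diet without resveratrol (control litters), and served for the values of control litters set beside those of resveratrol litters and for the test of the difference between diets. The labels give 3 biological replicates a group and do not tie a piglet to a litter, and no piglet was sampled at both ages, so that age, the loss of milk and the change of feed cannot be told apart.

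At weaning, sow milk, which carries fat, lactose, antibodies and growth factors, is replaced by solid feed, and the epithelium of the small intestine meets new food antigens and bacteria. The jejunal wall is a layered tissue: enterocytes, goblet cells and endocrine cells line villi and crypts, a lamina propria of fibroblasts, vessels and immune cells lies beneath them, and smooth muscle with enteric neurons surrounds both. Interferons, released when cells sense nucleic acids of viruses or bacteria, act through their receptors on a broad set of antiviral genes, and in the gut epithelium the type III (lambda) interferons are the main inducers of that set.

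Expression was given as FPKM (fragment counts divided by transcript length and by the mapped reads of the library) and was compared on log2(FPKM + 1). Read depth behind a single value is unknown. Summed FPKM of the 6 libraries lay between 324232 and 334469. Between 12361 and 14068 named loci reached 1 FPKM in the sucking libraries and between 10784 and 11618 in the weaned libraries, so that the groups did not overlap in the number of loci detected. Sucking replicate 2 stood apart from the other libraries, with a mean Pearson's r across loci of 0.891 to the other 5, compared with 0.902 to 0.926 for those 5 (loci are not independent replicates). Of the markers of intestinal position, FABP6 and GATA4 went against the label jejunum in 2 libraries. FABP6, the bile acid binding protein of the ileum, was at 128, 12.2 and 6146 FPKM in sucking piglets and 24110.4, 1.70 and 4.81 FPKM in weaned piglets. GATA4, a transcription factor of proximal small intestine, was at 8.16, 13.3 and 0.760 FPKM in sucking piglets and 0.717, 9.36 and 12.1 FPKM in weaned piglets. Sucking replicate 3 and weaned replicate 1 thus had high FABP6 with low GATA4, 1 library in each group, and the main counts are given with and without them. The proximal small intestine list as a whole was not low in these libraries. Its summed FPKM was 43.8, 103 and 92.2 in sucking and 100.8, 44.1 and 62.7 in weaned piglets. The control libraries differed too: the summed FPKM of the distal intestine list was 8584, 1609 and 72.9 in sucking and 10126, 9261 and 6932 in weaned control piglets, against 378, 98.3 and 6656 in sucking and 24749, 163 and 175 in weaned piglets of resveratrol litters. In sucking replicate 3 and weaned replicate 1 of resveratrol litters, most of that sum was FABP6. In bulk tissue, fewer cells of a type and less RNA per cell cannot be told apart.

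Of 14586 named loci tested with limma, 526 (3.61%) had both an unadjusted P under 0.05 and an absolute log2 fold change above 1, the standard by which a locus is called changed below. Of these, 145 loci (0.994%) were higher and 381 (2.61%) lower in weaned piglets. An unadjusted P under 0.05 was reached by 369 loci with higher (2.53%) and 1367 loci with lower values (9.37%) in weaned piglets. After Benjamini-Hochberg adjustment 2 loci (0.0137%) remained under 0.05 in limma. The median log2 fold change of all loci tested was -0.15, and changes are best read against that shift: with libraries rescaled by median of ratios the median was -0.01 and 236 loci were called higher and 235 lower, a share of 50.1% higher in place of 27.6%. Without sucking replicate 1 the standard was met by 253 higher and 675 lower loci, without sucking replicate 2 by 120 and 237, and without sucking replicate 3 by 175 and 709. With both libraries of high FABP6 left out (a setting added once the data had been seen) it was met by 224 higher and 812 lower loci.

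**Figure D1:**
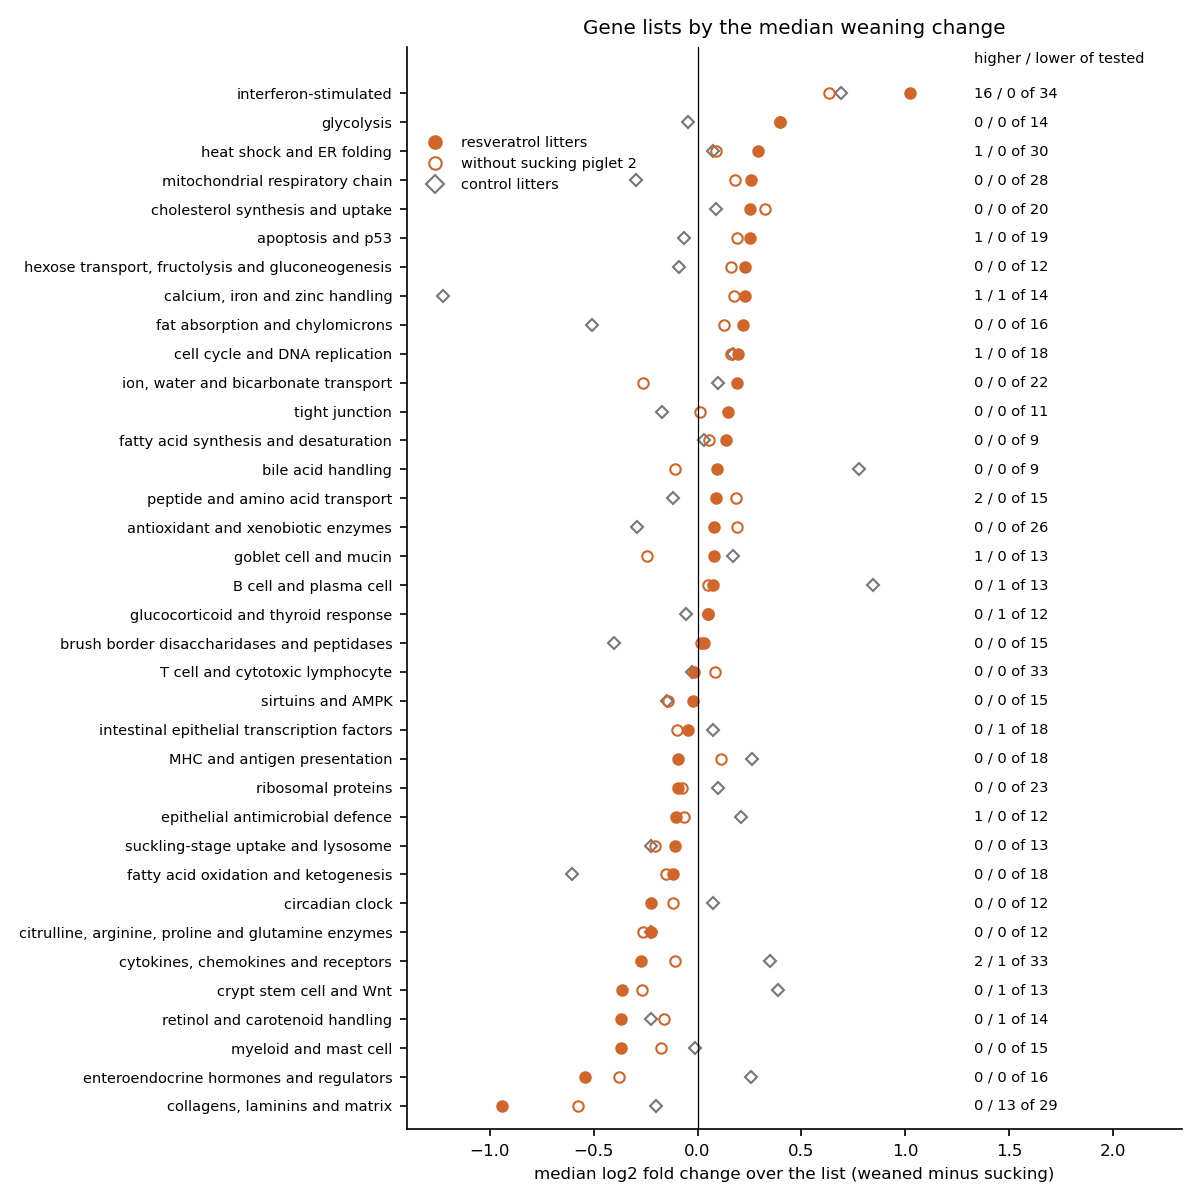
Median log2 fold change of weaning (x axis, weaned minus sucking, on log2(FPKM + 1)) for 36 gene lists of intestinal programmes (y axis). Filled circles are resveratrol litters, open circles the same without sucking replicate 2, diamonds control litters, and the figures at the right count members called higher and lower among those tested. The interferon-stimulated list (1.02) and the matrix list (-0.94) lie at the ends, and both medians shrink without sucking replicate 2 (0.63 and -0.58).

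Genes induced by interferon were the programme with the most members called higher. Of 41 genes on the list, 34 were matched and tested, and 16 of them were called higher and none lower, against 0.994% of all loci called higher. The median log2 fold change was 1.02, compared with -0.15 over all loci, and the groups did not overlap for 19 members with higher and 2 with lower values in weaned piglets (3.87% and 16.7% of all loci). These directions held under median-of-ratios rescaling (18 called, median 1.21) and quantile normalization (15 called, 0.98), but in the linear model of Ballgown, which carries a library-size covariate, no member was called, the median fell to 0.13, and IFIT2, IFIT3, HERC5 and XAF1 turned negative. That covariate was 19357 to 20998 in sucking and 17462 to 18638 in weaned libraries and so itself separated the groups.

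USP18, the protease that removes ISG15 from proteins and restrains interferon receptor signalling, was at 36.8, 12.2 and 18.6 FPKM in sucking piglets and 97.4, 107 and 98.6 FPKM in weaned piglets. All weaned libraries lay above 2 times every sucking library, and the log2 fold change was 2.25 ± 0.37 (SE), with an adjusted p of 0.352 from limma. IFIT1, which binds foreign RNA, was at 38.5, 6.47 and 5.40 FPKM in sucking piglets and 74.9, 101 and 60.7 FPKM in weaned piglets, a log2 fold change of 2.66 ± 0.66. MX1, a GTPase that traps viral capsids, was at 192, 45.0 and 84.8 FPKM in sucking piglets and 305, 437 and 312 FPKM in weaned piglets (1.93 ± 0.50). In both genes the highest sucking value was that of replicate 1 and remained below every weaned value. The RNA sensor DHX58 was at 21.9, 9.11 and 11.5 FPKM in sucking piglets and 37.2, 49.4 and 37.7 FPKM in weaned piglets (1.56 ± 0.33). CMPK2, a nucleotide kinase of mitochondria, was at 39.8, 15.8 and 35.3 FPKM in sucking piglets and 75.1, 95.2 and 66.7 FPKM in weaned piglets (1.44 ± 0.36), and ZBP1, a sensor of Z-form nucleic acid, rose by 1.25 ± 0.33. The groups did not overlap for any of these 6 genes, and their adjusted p ranged from 0.352 to 0.379 in limma.

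OASL, an antiviral relative of the 2-5A synthetases, had the widest change of the list, with 75.2, 2.59 and 44.2 FPKM in sucking piglets and 293, 622 and 166 FPKM in weaned piglets. Its log2 fold change was 3.76 ± 1.10, and 2.41 without sucking replicate 2, in which it was lowest. IFIT2 was at 27.0, 0.995 and 21.4 FPKM in sucking and 44.8, 106 and 47.4 FPKM in weaned piglets (2.52 ± 0.96). Without sucking replicate 2, in which IFIT2 was again lowest, its log2 fold change was 1.31. It was not called without weaned replicate 2. IRF7, the transcription factor that amplifies interferon production, was at 76.7, 26.1 and 93.6 FPKM in sucking piglets and 199, 173 and 189 FPKM in weaned piglets (1.69 ± 0.46). IRF7 and the remaining called members were named after their values were seen. These were IFIT3 (2.12), MX2 (1.92), RSAD2 (1.88), the RNA sensor DDX58 (1.60), HERC5 (1.44), IFIT5 (1.08) and XAF1 (1.06). XAF1 alone among the 16 overlapped between groups. Sucking replicate 2 had the lowest value of all 6 libraries for every called member except IFIT1, and without it 11 members were called higher and 2 lower, with a median of 0.63. ZBP1, IFIT5, RSAD2, HERC5 and XAF1 were the members no longer called. With both libraries of high FABP6 left out, 12 were called higher (median 1.11).

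**Figure D2:**
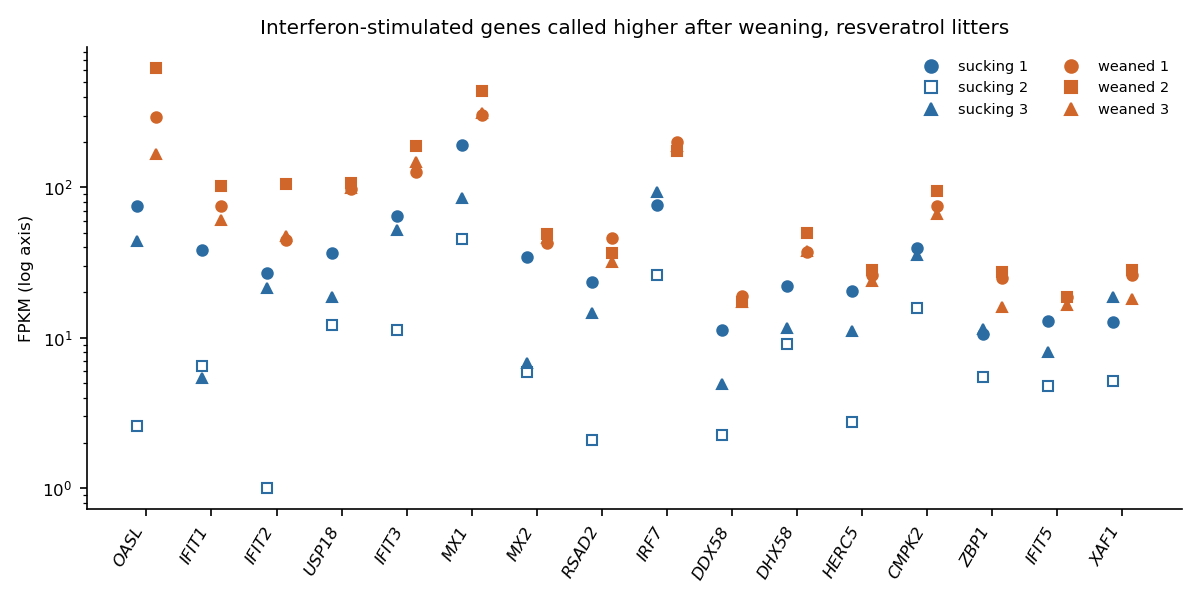
FPKM (y axis, log scale) of the 16 interferon-stimulated genes called higher in weaned piglets of resveratrol litters (x axis); each symbol is 1 library and open squares are sucking replicate 2. Weaned libraries lie above the sucking libraries for every gene shown except XAF1, and OASL spans 2.59 to 622 FPKM; in the Ballgown model IFIT2, IFIT3, HERC5 and XAF1 change sign.

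The summed FPKM of the interferon-stimulated list was 1902, 639.8 and 1413 in sucking and 2385, 3039.5 and 3159 in weaned piglets, so that the groups did not overlap. IL28B, the gene of interferon lambda 3, was near 0 before weaning and present in all weaned piglets, with 0.102, 0 and 0 FPKM in sucking piglets and 5.01, 7.40 and 2.89 FPKM in weaned piglets (log2 fold change 2.49 ± 0.31, adjusted p = 0.101 from limma). HSH2D, an adaptor of lymphocytes that interferon also induces, was at 55.1, 6.71 and 23.9 FPKM in sucking piglets and 88.3, 190.1 and 102 FPKM in weaned piglets (2.45 ± 0.68). A pair of genes known mainly as targets of interferon gamma had lower values in weaned piglets. CXCL9, a T-cell chemokine, was at 1.33, 0.717 and 2.48 FPKM in sucking piglets and 0.451, 0.231 and 0.321 FPKM in weaned piglets (-0.85 ± 0.30). The transcription factor IRF1 was at 49.6, 52.5 and 112 FPKM in sucking piglets and 33.2, 48.1 and 28.4 FPKM in weaned piglets (-0.88 ± 0.37). Both had an unadjusted P under 0.05 without passing the fold limit, and both were singled out after their values were seen. OAS1, the most abundant member, was at 702, 136 and 141 FPKM in sucking piglets and 250.1, 363 and 1334 FPKM in weaned piglets, and its groups overlapped (1.05 ± 0.81). In control litters 5 of 34 members were called higher and 2 lower (1.46% and 1.86% of all loci) with a median of 0.69, against -0.02 over all loci. The test of the difference between diets called 1 member in each direction (1.98% of all loci positive and 4.94% negative). The negative one was CXCL9 (-1.73 ± 0.68, not called without sucking replicate 3, weaned replicate 2 or sucking control replicate 3). Without sucking replicate 2 the difference was called for 3 members, all negative, and without weaned control replicate 1 for 6 positive and 1 negative.

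Immune cell markers and antigen presentation gave 1 call in 4 lists, against 3.61% of all loci called in either direction. None of 33 tested T-cell and cytotoxic lymphocyte genes was called (median -0.02), with CD3E, a subunit of the T-cell receptor complex, at 11.5, 18.2 and 19.8 FPKM in sucking piglets and 31.3, 16.5 and 9.06 FPKM in weaned piglets. Of 18 genes of the MHC and antigen presentation none was called (median -0.09). The interferon-inducible proteasome subunit PSMB9 was at 85.4, 71.5 and 76.8 FPKM in sucking piglets and 114, 106 and 111 FPKM in weaned piglets, without overlap and within the fold limit (0.50 ± 0.20). The peptide transporter TAP2 was at 42.4, 39.1 and 59.4 FPKM in sucking piglets and 79.8, 64.4 and 61.6 FPKM in weaned piglets (0.55 ± 0.24). Class II SLA-DRA had 567, 1561 and 507 FPKM in sucking and 427, 514 and 520.2 FPKM in weaned piglets. Among 13 B-cell and plasma-cell genes 1 was called, the plasma cell survival receptor TNFRSF17, with 2.72, 1.08 and 3.56 FPKM in sucking piglets and 0.0988, 1.09 and 0.902 FPKM in weaned piglets. It was called lower (-1.01 ± 0.38), but its groups overlapped and the call was lost in 3 of 6 leave-one-out fits. CD79A, a part of the B-cell receptor, was at 188, 229.8 and 173 FPKM in sucking piglets and 157, 209 and 172 FPKM in weaned piglets. Of 15 myeloid and mast cell genes none was called (median -0.37), and FLT3, a receptor of dendritic cell precursors, was at 3.14, 6.64 and 3.30 FPKM in sucking piglets and 1.51, 2.27 and 2.07 FPKM in weaned piglets (-0.81 ± 0.29).

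Of the loci eligible to be named, MT2A had the largest rise. MT2A, a metallothionein that buffers zinc and copper, was at 9.13, 24.1 and 58.6 FPKM in sucking piglets and 1149, 179.6 and 239 FPKM in weaned piglets. Each weaned library exceeded each sucking library by more than 3 times, and the log2 fold change of 3.90 ± 0.84 was called in every leave-one-out fit. SLC39A4, the importer that takes up dietary zinc, fell in the same animals, with 16.2, 17.0 and 28.0 FPKM in sucking piglets and 7.40, 8.81 and 8.77 FPKM in weaned piglets (-1.16 ± 0.25, not called without sucking replicate 3). Both genes were called in the same direction in control litters (MT2A 3.61, SLC39A4 -1.53), and the difference between diets was 0.29 ± 1.38 for MT2A and 0.37 ± 0.52 for SLC39A4, neither called. TFF2, a trefoil peptide of mucous cells that aids surface repair, was at 32.8, 5.21 and 31.6 FPKM in sucking piglets and 73.5, 91.5 and 208 FPKM in weaned piglets (2.57 ± 0.70, -0.12 in the Ballgown model). FGFBP1, a carrier that releases fibroblast growth factors from matrix, was at 2.13, 0.0448 and 0.524 FPKM in sucking piglets and 6.66, 7.11 and 14.1 FPKM in weaned piglets (2.52 ± 0.45, and 3.68 in control litters).

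COL17A1 and PKP3 are parts of the hemidesmosome and the desmosome that anchor epithelial cells. COL17A1 was at 28.7, 1.47 and 30.3 FPKM in sucking piglets and 57.0, 66.1 and 77.0 FPKM in weaned piglets (2.35 ± 0.91, and 1.14 without sucking replicate 2). PKP3 was at 19.4, 0.0692 and 19.6 FPKM in sucking piglets and 69.7, 173 and 28.1 FPKM in weaned piglets (3.21 ± 1.19). Its log2 fold change was 1.79 without sucking replicate 2 and 1.82 when its 2 loci were summed. Both were lowest in sucking replicate 2. PKP3 lost its call without weaned replicate 1 or 2 and COL17A1 without any 1 of the weaned replicates, and both turned negative in the Ballgown model. RABIF, a chaperone of Rab GTPases, was at 1.30, 14.0 and 0.508 FPKM in sucking piglets and 18.9, 20.6 and 18.6 FPKM in weaned piglets (2.45 ± 0.77, not called without sucking replicate 1). KHNYN, a cofactor of antiviral RNA decay, was at 0, 0.0519 and 0 FPKM in sucking piglets and 3.40, 4.30 and 6.04 FPKM in weaned piglets at the called locus (2.43 ± 0.24), but the sum of its 2 loci had a log2 fold change of -0.12. Among 11 tight junction genes none was called. CLDN4, a claudin that tightens the paracellular seal, was closest with 23.9, 19.0 and 27.4 FPKM in sucking piglets and 47.9, 41.4 and 52.4 FPKM in weaned piglets, no overlap and a log2 fold change of 0.99 ± 0.22.

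**Figure D3:**
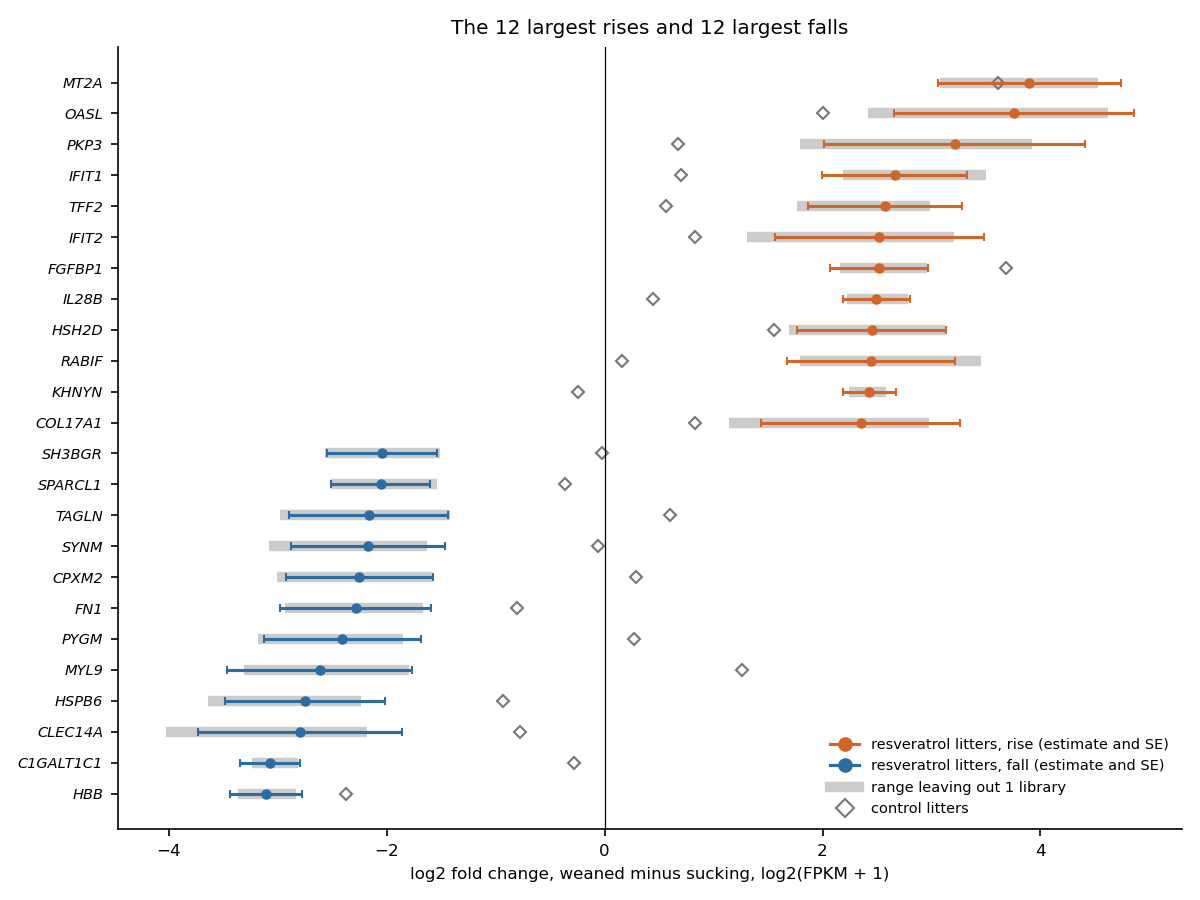
Log2 fold change of weaning (x axis, on log2(FPKM + 1)) for the 12 largest rises and 12 largest falls among called loci whose groups did not overlap (y axis). Circles with bars are the estimate and SE in resveratrol litters, grey bands the range when 1 library is left out, and diamonds control litters. The rises run from 2.35 (COL17A1) to 3.90 (MT2A) and the falls from -2.04 (SH3BGR) to -3.11 (HBB); in the Ballgown model PKP3, TFF2, IFIT2, COL17A1, CLEC14A, MYL9, PYGM, FN1, CPXM2, SYNM, TAGLN and SH3BGR change sign.

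The extracellular matrix list was the programme with the most members called lower outside the muscle markers. Bulk tissue does not show from which layer of the wall these values came. Of 33 matrix genes 29 were tested. All 29 had a negative log2 fold change, while 34.9% of all loci had a positive one, 13 were called lower and none higher (2.61% of all loci called lower), and the median was -0.94, a direction that turned to 0.38 with no member called in the Ballgown model. With median-of-ratios rescaling 7 were called lower and the median was -0.76. Elastin, ELN, was at 9.07, 14.1 and 10.5 FPKM in sucking piglets and 5.33, 2.35 and 2.07 FPKM in weaned piglets (-1.58 ± 0.33). Periostin, POSTN, a matricellular protein of fibroblasts, was at 14.6, 40.0 and 22.3 FPKM in sucking piglets and 12.1, 3.98 and 6.03 FPKM in weaned piglets (-1.67 ± 0.46). Fibronectin, FN1, was at 49.6, 168 and 42.5 FPKM in sucking piglets and 35.0, 10.4 and 6.79 FPKM in weaned piglets (-2.28 ± 0.69). For each of the 3 all weaned libraries lay below all sucking libraries, and these 3 were the members still called without sucking replicate 2.

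The fibrillar collagens showed how far 1 library weighed on the rest. COL3A1, the most abundant matrix gene, was at 289, 908 and 284 FPKM in sucking piglets and 269, 145 and 116 FPKM in weaned piglets (-1.35 ± 0.53, and -0.79 without sucking replicate 2). The proteoglycan decorin, DCN, was at 43.6, 105 and 38.7 FPKM in sucking piglets and 26.0, 20.8 and 17.5 FPKM in weaned piglets (-1.37 ± 0.39). COL5A2 (-1.04 ± 0.31) and COL14A1 (-1.01 ± 0.31) were called as well, as were MMP2, COL1A2, LUM, COL4A2, COL5A1 and COL4A1, with log2 fold changes from -1.30 to -1.04. These 6 were named after their values were seen. SPARC, a secreted regulator of collagen assembly, was at 223, 685 and 222 FPKM in sucking piglets and 260.2, 163 and 114 FPKM in weaned piglets and was not called. Without sucking replicate 2 the median of the list was -0.58 and 3 members were called, without weaned replicate 2 they numbered 7, without weaned replicate 3 they numbered 5, and without sucking replicate 3 they numbered 19. With both libraries of high FABP6 left out, 22 members were called lower and the median was -1.34. Summed matrix FPKM was 1284, 3504 and 1242 in sucking and 1124, 778 and 620.5 in weaned piglets.

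Markers of the muscle coat and of vessels moved with the matrix genes, and their part in the result was not tested. Of 18 tested smooth muscle genes 15 were called lower, against 2.61% of all loci (median -2.09, 0.48 in the Ballgown model with none called, and 7 called without sucking replicate 1 or 2), and their summed FPKM was 2782, 5818 and 916 in sucking against 869.9, 649 and 266 in weaned piglets. Of the 12 largest falls, HSPB6, MYL9, SYNM and TAGLN belong to that list. Of 10 tested endothelial genes none was called, and all 10 were negative, against 34.9% of all loci that were positive (median -0.75). PECAM1, which joins endothelial cells, was at 24.8, 35.9 and 30.5 FPKM in sucking piglets and 20.0, 17.2 and 13.9 FPKM in weaned piglets (-0.80 ± 0.23). The lymphatic regulator PROX1 had a log2 fold change of -0.72 ± 0.21. Of 11 tested neuron and glia genes 3 were called lower, UCHL1 (-1.45), NEFL (-1.18) and STMN2 (-1.01, named after its values were seen), with all 11 negative. The count was 6 without sucking replicate 1 or weaned replicate 2, 5 without sucking replicate 3, 2 without weaned replicate 3 and 1 without sucking replicate 2.

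**Figure D4:**
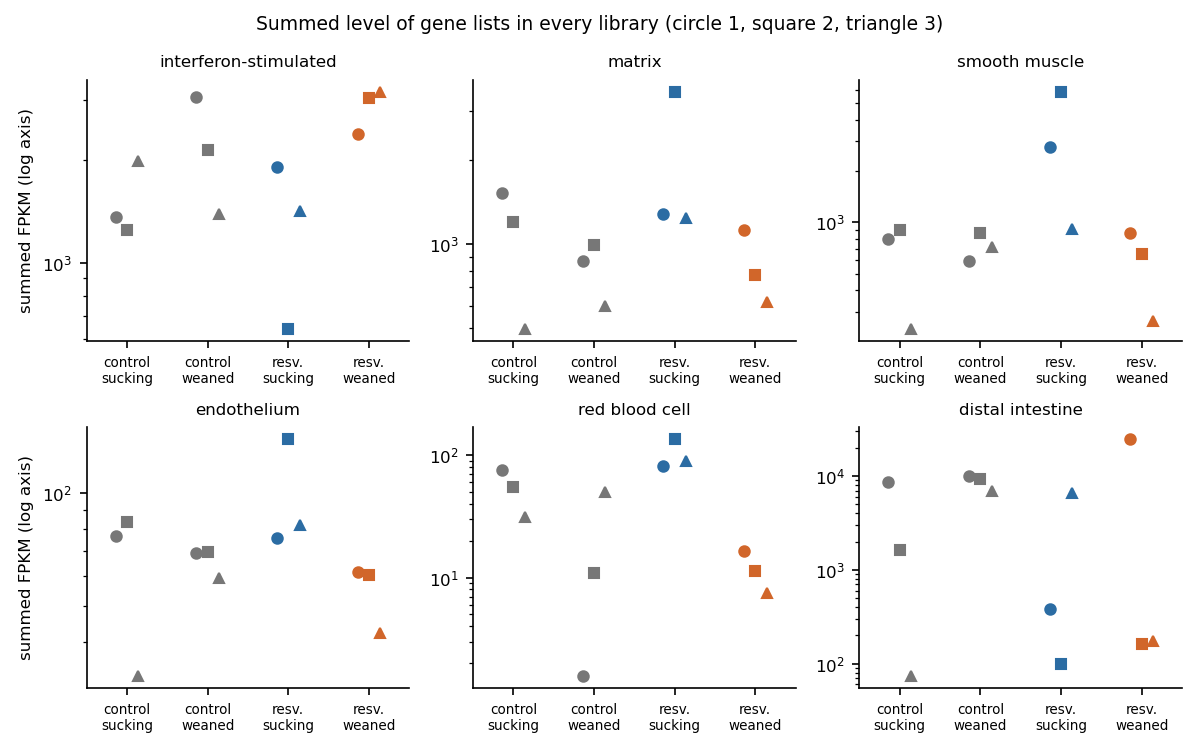
Summed FPKM (y axes, log scale) of 6 gene lists in all 12 libraries, by group (x axis); grey is control litters, blue sucking and orange weaned piglets of resveratrol litters, and circle, square and triangle are replicates 1 to 3. Sucking replicate 2 is lowest for interferon-stimulated genes (639.8) and highest for matrix (3504), smooth muscle (5818) and endothelium (139). The distal intestine sum is high in sucking replicate 3 (6656) and weaned replicate 1 (24749), where it is mostly FABP6. It is also high in sucking control replicate 1 (8584) and in all 3 weaned control libraries (6932 to 10126). In the Ballgown model no member of the interferon, matrix and muscle lists was called, and the median of the interferon list was 0.13, that of matrix 0.38 and that of muscle 0.48, so that the last 2 turned in sign.

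Several large falls were of genes that are not on the matrix, muscle, vessel or neuron lists. HBB, the beta chain of haemoglobin carried by red cells and their precursors, fell from 99.2 ± 27.2 to 10.9 ± 4.20 FPKM (SD, n = 3 each). Its values were 79.0, 130.1 and 88.6 FPKM in sucking piglets and 15.1, 10.8 and 6.70 FPKM in weaned piglets. No value overlapped, with a log2 fold change of -3.11 ± 0.33 and an adjusted p of 0.0539 from limma. In control litters HBB fell as well (-2.38 ± 1.10), with overlapping groups and no call. Its difference between diets was -0.73 ± 1.28 and was not called. ALAS2, which starts haem synthesis in red cell precursors, had a log2 fold change of -0.76 ± 0.24, and it and HBB were the 2 red cell markers tested, of 10 listed and 7 matched. The locus with the smallest adjusted p was ENSSSCG00000027842, which has no symbol, with 11.7, 12.1 and 13.7 FPKM in sucking piglets and 0, 0 and 0.307 FPKM in weaned piglets (-3.62 ± 0.21, adjusted p = 0.00474 from limma). C1GALT1C1, the chaperone of the enzyme that extends mucin-type O-glycans, was at 11.5, 6.64 and 5.92 FPKM in sucking piglets and 0, 0.00675 and 0.106 FPKM in weaned piglets at the called locus (-3.07 ± 0.27, adjusted p = 0.0466 from limma), and its 3 loci summed gave -1.09. Both loci were close to 0 in the weaned group and clearly expressed in all 3 sucking libraries of resveratrol litters. In control litters C1GALT1C1 was at 2.10, 9.15 and 0 FPKM in sucking and 8.60, 0 and 0.845 FPKM in weaned piglets (-0.28). There ENSSSCG00000027842 was at 0, 0 and 8.67 FPKM in sucking and 0, 0 and 0 FPKM in weaned piglets (-1.09), and neither was called. No locus passed the adjusted threshold without weaned replicate 2, nor in the Ballgown model, the fit of all 12 libraries, a fit with a replicate block, or when the FPKM minimum was dropped or raised to 5 or the pseudocount lowered to 0.1.

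Among the other falls, SPARCL1, a matricellular protein of vessels and stroma, was at 67.7, 151 and 38.2 FPKM in sucking piglets and 16.8, 16.6 and 17.3 FPKM in weaned piglets (-2.05 ± 0.45). PYGM, the glycogen phosphorylase of muscle, was at 32.8, 52.9 and 7.51 FPKM in sucking piglets and 6.37, 5.01 and 1.34 FPKM in weaned piglets (-2.41 ± 0.72). In both the spread in FPKM was wider in the sucking group, where replicate 2 was highest. CLEC14A, a lectin of endothelium, was listed at 0 in weaned replicates 2 and 3 and at 11.8 FPKM in weaned replicate 1, against 12.5, 21.3 and 13.2 FPKM in sucking piglets. Its call was lost when sucking replicate 2 or either weaned library at 0 was left out. The carboxypeptidase relative CPXM2 fell by 2.25 and SH3BGR by 2.04 on the log2 scale. In the Ballgown model CLEC14A (0.52), CPXM2 (0.62), SH3BGR (0.046) and PYGM (0.37) turned positive.

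Of 33 cytokine, chemokine and receptor genes tested, 2 were called higher and 1 lower (3.61% of all loci called in either direction), and 22 were negative, about the share of negative values over all loci, with a median of -0.27. Leaving out 1 library gave 1 to 4 called lower, the 4 without weaned replicate 1. CCL21, which draws T cells and dendritic cells into lymphatic vessels, was at 44.3, 108 and 44.6 FPKM in sucking piglets and 15.7, 25.0 and 19.4 FPKM in weaned piglets (-1.55 ± 0.38). The groups did not overlap, and the call was kept without any 1 library. CCR10, the homing receptor of IgA plasma cells, was at 0.206, 0.738 and 0.399 FPKM in sucking piglets and 1.38, 2.64 and 2.58 FPKM in weaned piglets (1.13 ± 0.27, and 0.74 with 2 loci summed). IL18, an epithelial cytokine of the inflammasome, was at 11.8, 8.95 and 15.2 FPKM in sucking piglets and 14.1, 29.8 and 50.3 FPKM in weaned piglets (1.17 ± 0.44), with overlapping groups, a call that was lost in 4 of 6 leave-one-out fits and a log2 fold change of -0.39 in the Ballgown model. CXCR4, the receptor of CXCL12, was at 6.56, 9.93 and 6.53 FPKM in sucking piglets and 4.35, 3.84 and 4.34 FPKM in weaned piglets (-0.72 ± 0.22), and CXCL8, which attracts neutrophils, at 8.39, 8.99 and 10.1 FPKM in sucking piglets and 4.28, 3.69 and 6.97 FPKM in weaned piglets (-0.80 ± 0.25). The alarmin IL33 had a log2 fold change of -0.93 ± 0.28. CCL25, which homes lymphocytes to small intestine, was the most abundant chemokine with 740.2, 728 and 811 FPKM in sucking piglets and 939, 913 and 692 FPKM in weaned piglets and overlapping groups (0.15 ± 0.26).

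The counts for digestion and absorption stand against 3.61% of all loci called in either direction. None of 16 fat absorption and chylomicron genes was called (median 0.22). The lipid droplet protein CIDEB was at 86.4, 84.7 and 85.0 FPKM in sucking piglets and 117, 180.1 and 160.4 FPKM in weaned piglets (0.81 ± 0.23), and NPC1L1, the cholesterol importer, at 34.7, 17.8 and 39.2 FPKM in sucking piglets and 74.4, 45.3 and 57.8 FPKM in weaned piglets (0.98 ± 0.34). Both groups of libraries were apart for these genes, with changes under the fold limit. FABP1, which carries fatty acids in enterocytes, was at 5775, 3863 and 1809 FPKM in sucking piglets and 2031, 3577 and 8325 FPKM in weaned piglets, so that the groups overlapped widely (0.19 ± 0.63). None of 15 brush border disaccharidases and peptidases was called (median 0.03). Of 15 peptide and amino acid transporters 2 were called higher (0.994% of all loci). SLC6A19, the carrier of neutral amino acids, was at 63.2, 56.9 and 152 FPKM in sucking piglets and 182, 163 and 189.7 FPKM in weaned piglets (1.11 ± 0.38). SLC15A1, the di- and tripeptide carrier, was at 36.0, 26.1 and 71.4 FPKM in sucking piglets and 131, 70.1 and 71.6 FPKM in weaned piglets (1.08 ± 0.42). The highest sucking value of SLC15A1 overlapped the weaned group, and neither was called without sucking replicate 1 or without sucking replicate 2.

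In the hexose list none of 12 genes was called. GALT, the enzyme that uses the galactose of milk sugar, was at 47.1, 72.5 and 50.4 FPKM in sucking piglets and 36.9, 27.3 and 24.2 FPKM in weaned piglets without overlap (-0.92 ± 0.26). SLC5A1, the glucose and galactose carrier, was at 108, 132 and 305 FPKM in sucking piglets and 281, 125 and 205 FPKM in weaned piglets (0.24 ± 0.46). Of 14 calcium, iron and zinc genes MT2A was called higher and SLC39A4 lower, and without sucking replicate 2 the counts were 3 higher and 1 lower. S100G, the calcium shuttle calbindin, was at 146, 1195 and 115 FPKM in sucking piglets and 262, 317 and 972 FPKM in weaned piglets (0.67 ± 0.92). Among 22 genes of ion, water and bicarbonate transport none was called, the closest being the chloride channel CLCN2 (0.79 ± 0.24) and the sodium and proton exchanger SLC9A2 (0.68 ± 0.22), both without overlap. None of 9 bile acid genes was called. FABP6, the bile acid importer SLC10A2 and the hormone FGF19 were each highest in weaned replicate 1, and the standard errors of their log2 fold changes were 3.64, 1.10 and 1.35.

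Of 14 retinol and carotenoid genes, ISX was called lower, against 2.61% of all loci. ISX is the intestinal homeobox factor that represses carotenoid uptake. It was at 1.06, 0.915 and 1.61 FPKM in sucking piglets and 0.00140, 0.249 and 0 FPKM in weaned piglets (-1.01 ± 0.24, lost in 3 of 6 leave-one-out fits), a low level at which the log2(FPKM + 1) scale understates the change. DHRS3, which reduces retinal, was at 27.8, 65.1 and 43.7 FPKM in sucking piglets and 21.4, 25.7 and 23.6 FPKM in weaned piglets (-0.84 ± 0.32). Among 13 genes of macromolecule uptake and lysosomes in the sucking period none was called. DAB2, an adaptor of endocytosis, was nearest to the fold limit with 10.1, 15.7 and 12.9 FPKM in sucking piglets and 5.66, 5.60 and 6.48 FPKM in weaned piglets, and its groups were well apart (-0.99 ± 0.22).

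Among energy and stress programmes the 1 call was in the list of chaperones and folding, against 3.61% of all loci called in either direction. Of 14 glycolysis genes 12 were positive and none called (median 0.40), with PKM, which makes pyruvate, at 232, 227 and 133 FPKM in sucking piglets and 237, 371 and 349 FPKM in weaned piglets (0.71 ± 0.32). Of 28 respiratory chain subunits 24 were positive and none called (median 0.26), and of 20 cholesterol synthesis and uptake genes 19 were positive and none called (median 0.25). Over all loci 34.9% were positive, and the cholesterol list had a median of -0.05 without 1 of the libraries and 0.61 without another. Of 18 fatty acid oxidation genes none was called (median -0.12), with ACADL, a mitochondrial acyl-CoA dehydrogenase, at 20.0, 20.2 and 27.1 FPKM in sucking piglets and 14.4, 7.47 and 13.2 FPKM in weaned piglets (-0.92 ± 0.28). Of 30 chaperone and folding genes TRIB3, a pseudokinase induced by amino acid shortage, was called higher, with 10.1, 3.68 and 8.91 FPKM in sucking piglets and 17.8, 14.6 and 16.1 FPKM in weaned piglets (1.10 ± 0.34), and the call was lost without sucking replicate 2. Of 26 antioxidant and xenobiotic genes none was called. SRXN1, which repairs peroxiredoxins, was at 5.36, 4.51 and 6.57 FPKM in sucking piglets and 10.3, 14.4 and 8.53 FPKM in weaned piglets (0.88 ± 0.25), and catalase, CAT, at 102, 186 and 121 FPKM in sucking piglets and 60.3, 78.0 and 103 FPKM in weaned piglets (-0.74 ± 0.31), with overlap. None of 15 sirtuin and AMPK genes, proposed targets of resveratrol, was called (median -0.02). The AMPK subunit PRKAA1 was at 2.39, 0.110 and 1.24 FPKM in sucking piglets and 2.75, 3.57 and 2.69 FPKM in weaned piglets (0.97 ± 0.40), and SIRT1 at 0.936, 0.945 and 1.02 FPKM in sucking piglets and 0.713, 0.454 and 0.880 FPKM in weaned piglets (-0.23 ± 0.22).

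Of all loci 0.994% were called higher and 2.61% lower, so that 1 call in a list of 13 to 19 genes says little about the list. Of 19 apoptosis genes 1 was called, TNFSF10, the death ligand TRAIL that interferon induces, with 9.09, 6.31 and 2.97 FPKM in sucking piglets and 17.4, 22.8 and 12.1 FPKM in weaned piglets (1.43 ± 0.39). Its groups did not overlap, and the call was kept without any 1 library. Among 13 crypt stem cell genes PROM1, a membrane glycoprotein of progenitors, was called lower, with 2.98, 4.56 and 2.52 FPKM in sucking piglets and 1.35, 0.791 and 1.00 FPKM in weaned piglets (-1.07 ± 0.25, lost without sucking replicate 2 or weaned replicate 2), and 12 of the 13 were negative (median -0.37). The stem cell marker OLFM4 was at 1212, 460.4 and 345 FPKM in sucking piglets and 146, 879.6 and 1144 FPKM in weaned piglets and overlapped (-0.13 ± 0.83). Among 18 cell cycle genes CDC20, an activator of mitotic exit, was called higher, with 30.6, 15.0 and 8.79 FPKM in sucking piglets and 31.2, 45.4 and 35.2 FPKM in weaned piglets (1.15 ± 0.42, lost in 4 of 6 leave-one-out fits). Of 16 enteroendocrine genes none was called, and 13 were negative (median -0.54). The incretin GIP was at 53.1, 253 and 144 FPKM in sucking piglets and 37.8, 84.9 and 73.8 FPKM in weaned piglets. The granule protein CHGA was at 82.5, 109 and 106 FPKM in sucking piglets and 58.9, 74.6 and 88.9 FPKM in weaned piglets (-0.43 ± 0.24), and both genes overlapped between groups. Of 13 goblet cell genes TFF2 was the only one called, and TFF3, the main trefoil peptide of intestine, was at 758, 363 and 1141 FPKM in sucking piglets and 981, 1001 and 1841 FPKM in weaned piglets (0.84 ± 0.48).

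The next counts, too, stand against 0.994% of all loci called higher and 2.61% called lower, and 1 call says little about a list. Of 12 antimicrobial genes LCN2, which binds bacterial siderophores, was called higher at its most abundant locus, with 0, 0 and 0.264 FPKM in sucking piglets and 2.05, 1.63 and 1.97 FPKM in weaned piglets (1.41 ± 0.22, and 0.61 with 4 loci summed). Lysozyme, LYZ, had 25.7, 244 and 13.6 FPKM in sucking and 92.6, 118 and 1002 FPKM in weaned piglets, a spread too wide for a call (2.29 ± 1.23). Among 12 glucocorticoid and thyroid genes DIO1, which converts thyroxine to its active form, was called lower, with 8.60, 20.9 and 6.93 FPKM in sucking piglets and 5.43, 6.14 and 2.31 FPKM in weaned piglets (-1.15 ± 0.45), lost without sucking replicate 2 or weaned replicate 3 and reversed in the Ballgown model. No member was called among 12 circadian clock genes, 23 ribosomal protein genes, 9 genes of fatty acid synthesis or 12 enzymes of citrulline, arginine, proline and glutamine, whose medians were -0.22, -0.09, 0.14 and -0.23. Of 18 intestinal epithelial transcription factors ISX alone was called, and KLF4, a factor of differentiated surface cells, was at 12.8, 12.1 and 14.6 FPKM in sucking piglets and 21.8, 19.2 and 20.6 FPKM in weaned piglets (0.61 ± 0.19).

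Whether weaning acted differently under the 2 maternal diets was tested over all 12 libraries as the change in resveratrol litters minus the change in control litters. Of 14332 loci tested, 992 (6.92%) passed the standard, 284 positive (1.98%) and 708 negative (4.94%), and 1888 (13.2%) had an unadjusted P under 0.05. None (0%) passed Benjamini-Hochberg adjustment in limma, nor in the Ballgown model. Without sucking control replicate 3 the standard was met by 632 loci. The median difference of all loci was -0.13. In control litters themselves 467 of 14087 loci (3.32%) were called, 205 higher (1.46%) and 262 lower (1.86%), with 1 (0.0071%) past the adjustment in limma. In the Ballgown model the difference was called for no member of the fat, mineral, cytokine and smooth muscle lists. Of 15 brush border genes the difference was called positive for 3 (1.98% of all loci) and negative for none in limma. In the Ballgown model 1 of these 3 kept its call.

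Of the fat and mineral absorption genes, 4 in each list had a difference called positive. The values of the marker lists of intestinal position moved in the same contrast. Distal intestine genes summed to at least 6932 FPKM in every weaned control library and to 175 FPKM or less in weaned replicates 2 and 3 of resveratrol litters. Where that sum was high in resveratrol litters, it was mostly FABP6. The difference was called for 0 of 8 tested distal genes (median difference -0.74). The proximal list had a median of -1.04 in control litters and a median difference of 0.93, with 1 of 6 tested genes called positive (1.98% of all loci). SLC40A1, CYBRD1 and SLC46A1 are on both the proximal and the mineral list, so these lists are not independent. The part of the position markers in the differences between diets was not tested. Since all 3 weaned control libraries had a high distal sum, they could not be left out. In control litters 4 of 16 fat absorption genes were called lower (1.86% of all loci), with a median of -0.51 against 0.22 in resveratrol litters. The difference was called positive for 4 (1.98% of all loci) and negative for none. MTTP, the transfer protein that loads lipid onto chylomicrons, was at 197, 284 and 369 FPKM in sucking and 135, 78.0 and 40.2 FPKM in weaned control piglets, and at 157, 76.0 and 107 and then 108, 100.3 and 165 FPKM in resveratrol litters. The control groups were apart and the resveratrol groups overlapped, with a difference of 2.02 ± 0.60 that was called without any 1 library. FABP1 was at 3311, 11019 and 12407 FPKM in sucking and 2306, 2762 and 891 FPKM in weaned control piglets, a log2 fold change of -2.11 against 0.19 in resveratrol litters (difference 2.30 ± 0.96). APOB (1.41), the scaffold of chylomicrons, and CIDEB (1.26) completed the 4, and MTTP and APOB were named after their values were seen. FABP1 and APOB each lost the call in 6 of 12 leave-one-out fits and CIDEB in 3. All 3 lost it without sucking control replicate 3 and without weaned control replicate 3, and the list then held 2 and 1 called members.

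Of 14 calcium, iron and zinc genes the difference was called positive for 4 (1.98% of all loci) and negative for none. S100G was at 136, 415 and 2715 FPKM in sucking and 71.6, 62.4 and 33.6 FPKM in weaned control piglets (difference 3.97 ± 1.51). The calcium pump ATP2B1 was at 16.1, 18.1 and 127 FPKM in sucking and 6.99, 3.29 and 5.19 FPKM in weaned control piglets, and at 10.8, 12.1 and 5.25 and then 10.8, 9.39 and 21.8 FPKM in resveratrol litters (difference 3.05 ± 0.94). In both, sucking control replicate 3 held the highest value of all 12 libraries. Without it the difference of S100G was 2.80 and that of ATP2B1 was 2.11. The call of S100G was lost in 5 of 12 leave-one-out fits, that one included, and the call of ATP2B1 in none. The folate and haem carrier SLC46A1 (2.25), also highest in that library and 1.46 without it, and the transferrin receptor TFRC (1.28), named after its values were seen, lost their call in 7 and 5 of 12 leave-one-out fits.

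Every difference called in the cytokine, matrix and smooth muscle lists was negative. The difference was called negative for 7 of 31 cytokine genes and positive for none (4.94% and 1.98% of all loci), and for no member in the Ballgown model. CXCL13, which builds B-cell follicles, was at 4.40, 1.67 and 5.38 FPKM in sucking and 28.5, 24.6 and 6.14 FPKM in weaned control piglets against 5.01, 5.71 and 0.493 FPKM in sucking piglets and 1.25, 0.0710 and 0.385 FPKM in weaned piglets of resveratrol litters (difference -3.35 ± 0.92). CCL21 was at 16.2, 40.5 and 17.0 FPKM in sucking and 30.1, 44.1 and 25.3 FPKM in weaned control piglets (difference -2.06 ± 0.58). Weaned control piglets had the highest CXCL13 values of the series, and neither call depended on 1 library. The others were CCL19 (-2.40), CXCR4 (-1.30), CXCL8 (-1.27), IL10RA (-1.28) and CXCL12 (-1.21), of which CCL19, IL10RA and CXCL12 were named, like CXCL13, after their values were seen, and CCL19 lost its call in 5 of 12 leave-one-out fits and CXCL12 in 2, without weaned control replicate 2 or weaned replicate 2. The difference was called negative for 5 of 29 matrix genes (1 without sucking replicate 2), among them ELN (-2.16 ± 0.54), and in the Ballgown model for ELN alone, with 3 members positive. For smooth muscle it was negative for 10 of 17 genes, and for 5 without sucking replicate 1 or sucking control replicate 3.

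TNFSF10 and IL28B differed in the positive direction. TNFSF10 was at 29.6, 21.6 and 28.2 FPKM in sucking and 10.7, 15.9 and 23.2 FPKM in weaned control piglets (difference 2.13 ± 0.51), and IL28B at 0, 0 and 1.53 FPKM in sucking and 0.995, 1.46 and 0.296 FPKM in weaned control piglets (difference 2.05 ± 0.56). Both were called without any 1 library, IL28B not in the Ballgown model. The adjusted p of the genes named here for a difference between diets lay between 0.26 and 0.36 in limma.

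By the smallest P for the difference, the loci named were NR2C2 (-4.64), SS18L2 (2.12), C11orf68 (-1.45), SLC39A13 (-1.83), RAB3IL1 (-1.63), ADRA2B (-1.79), ANO9 (-3.24), PAIP2 (-1.65), CD44 (-1.64) and CRYAB (-1.80). CD44, the hyaluronan receptor of crypt base cells and leukocytes, was at 6.01, 5.26 and 3.97 FPKM in sucking and 8.88, 10.2 and 14.0 FPKM in weaned control piglets and at 8.24, 8.37 and 6.43 and then 3.36, 4.83 and 5.41 FPKM in resveratrol litters, so that the groups were apart in opposite directions. SLC39A13, a zinc carrier of the secretory pathway, was at 2.68, 2.76 and 4.22 FPKM in sucking and 10.4, 10.3 and 11.4 FPKM in weaned control piglets and at 7.71, 6.70 and 8.49 and then 5.09, 8.89 and 4.17 FPKM. CRYAB, a small heat shock protein of muscle, was level in control litters (1.98, 2.07 and 1.30 and then 1.89, 2.31 and 2.05 FPKM) and fell in resveratrol litters from 7.85, 9.46 and 6.25 to 1.69, 2.97 and 1.05 FPKM. NR2C2 is 1 of 6 loci of its name, and its difference was -0.08 with the loci summed. ANO9, which has 2 loci, kept a difference of -0.99 when they were summed, inside the fold limit.

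**Figure D5:**
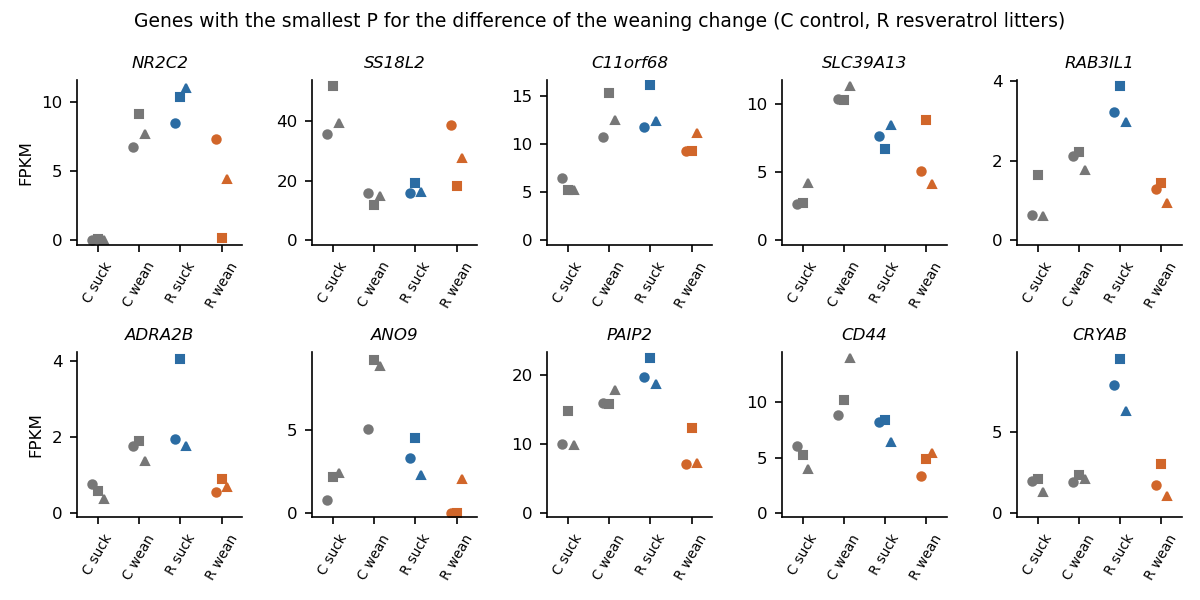
FPKM (y axes, linear) of the 10 genes with the smallest P for the difference of the weaning change between diets, by group (x axes; C control, R resveratrol litters). Grey is control litters, blue sucking and orange weaned piglets of resveratrol litters, and circle, square and triangle are replicates 1 to 3; 9 of the 10 differences are negative and SS18L2 is positive (2.12).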

How the data were processed

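Poly(A) RNA of jejunum from 12 piglets, 4 groups of 3 by their labels, was sequenced in paired ends. The study's methods name TopHat, StringTie and Ballgown, and the submitters' processing notes name HISAT2 2.0, StringTie 1.3.0, Bowtie 0.12.2, the pig build Sscrofa10.2 and the mouse build mm8, so that which aligner made the table is not settled. The authors deposited FPKM for 41264 loci, without counts, so that depth is unknown. Of these, 17650 (42.8%) carry no gene name and were not used, and 2139 of 6232 Ensembl names were matched to a symbol. Loci averaging 0.5 FPKM or more over the fitted libraries were tested with limma 3.58.1 under R 4.3.3 (lmFit, then eBayes with a mean-variance trend) after adding a pseudocount of 1 and taking log2, which understates the change of low genes. The contrast was weaned minus sucking piglets and, over 12 libraries, resveratrol minus control litters of that contrast. Adjusted p are Benjamini-Hochberg over all loci of a fit. A permutation test of 3 against 3 cannot go below an exact p of 0.1 and was not used.

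Members and lists were chosen with earlier results of these data known. Genes named are the 12 largest rises and falls (called, no overlap, a symbol, mean of 1 FPKM or more), loci with an adjusted p under 0.05, up to 6 members with the smallest P and the 2 most abundant of each of 36 programme and 7 marker lists, and the 10 smallest P for the difference. Where a name has several loci, the most abundant is given for lists and the called one otherwise. Of 985 list genes 756 were matched. The alternatives other than Ballgown changed 1 choice at a time: the pseudocount (0.1), the filter (none, or 5 FPKM), the scaling (median of ratios, quantile), the trend, a replicate block, loci summed by name, the libraries fitted and each library left out. The linear model of Ballgown took the place of the limma fit and also added a covariate for library size. Some list members are not reported here. The code was tested on simulated data, and plots were made with matplotlib 3.10.9.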

Additional observations from a re-analysis of the deposited data

How the results depend on the processing

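Against 145 loci called higher, 381 lower and 2 with an adjusted p under 0.05, a pseudocount of 0.1 gave 934 lower and 0, no filter 0 with an adjusted p under 0.05, a minimum of 5 FPKM 134 lower and 0, median-of-ratios rescaling 236 higher and 235 lower, quantile normalization 207 lower and 1, summed loci 1, the Ballgown model 149 lower and 0, and the fit of all 12 libraries 0 with an adjusted p under 0.05. With both libraries of high FABP6 left out, 224 were higher and 812 lower. Leaving out 1 library gave 120 to 253 higher, 237 to 709 lower and 0 to 9 with an adjusted p under 0.05. The share of called loci that were higher, 27.6%, was 17.5% with a pseudocount of 0.1, 43.0% with a minimum of 5 FPKM, 50.1% with median of ratios, 50.2% with quantile normalization and 44.0% in the Ballgown model. The numbers shared by sucking and weaned piglets showed no pairing (correlations of deviations -0.24, 0.097 and -0.22, and not every library correlated best with its own number). A replicate block gave 157 higher, 401 lower and 0 with an adjusted p under 0.05. For the difference between diets, 992 loci became 366 with a minimum of 5 FPKM and 327 in the Ballgown model, and 632 (without sucking control replicate 3) to 1339 when 1 library was left out, with 0 to 2 at an adjusted p under 0.05. For control litters, 467 became 1032 with a pseudocount of 0.1 and 238 with a minimum of 5 FPKM. Their 1 locus with an adjusted p under 0.05 became 0 with no filter, a minimum of 5 FPKM, a replicate block, summed loci and the Ballgown model, and 0 to 5 when 1 library was left out. Genes that reversed in the Ballgown model were PKP3 -0.83, TFF2 -0.12, IFIT2 -1.20, COL17A1 -1.12, CLEC14A 0.52, MYL9 0.49, PYGM 0.37, FN1 0.82, CPXM2 0.62, SYNM 0.14, TAGLN 0.87, SH3BGR 0.046, IFIT3 -0.11, HERC5 -0.15, XAF1 -0.30, IL18 -0.39, DIO1 0.32, POSTN 0.0064, DCN 0.17, COL5A2 0.18, COL14A1 0.058, MMP2 0.15, COL1A2 0.60, LUM 0.40, COL4A2 0.21, COL3A1 0.89, COL5A1 0.65 and COL4A1 0.41. With loci summed, KHNYN was -0.12. The cause was not tested. Of the other gene values under an alternative, 1095 kept direction and call and 161 kept direction only. The small groups, the unknown depth and sucking replicate 2 limit every statement on single genes.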

Other observations

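Changes outside the lists, chosen after their values were seen, included the following called loci, whose libraries did not overlap between ages. They are single genes, from which nothing follows for a pathway or cell type. Higher in weaned piglets, among genes that interferon is known to induce, were UBE2L6, which conjugates ISG15 (1.76 ± 0.39 on the log2 scale, SE), the helicase relative ZNFX1 (1.05 ± 0.42), the transcription factor BATF2 (1.42 ± 0.44) and PLAC8 (1.98 ± 0.57). Also higher were the EGF receptor ligand AREG (2.33 ± 0.55), the receptor EPHA2 (1.66 ± 0.47) and the transcription factor FOS (1.50 ± 0.32). The keratin KRT8 (1.22 ± 0.40), plakoglobin JUP (1.09 ± 0.24), the laminin chain LAMA3 (1.57 ± 0.57) and the galectin LGALS3 (1.07 ± 0.35) were higher too.

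Among the lower loci were MGLL, which cleaves monoglycerides (-1.99 ± 0.25), the lipolysis coactivator ABHD5 (-1.04 ± 0.22) and the lipid droplet protein CIDEA (-1.37 ± 0.45). RETNLB, a goblet cell peptide against bacteria, was lower (-1.23 ± 0.25), as were the lipopolysaccharide binding protein LBP (-1.30 ± 0.43) and the macrophage receptors CD209 (-1.58 ± 0.36) and FOLR2 (-1.31 ± 0.36). Vimentin, VIM (-1.17 ± 0.42), THY1 (-1.13 ± 0.33), PDPN (-1.22 ± 0.43), the BMP antagonist GREM1 (-1.51 ± 0.34) and the transcription factor HAND2 (-1.54 ± 0.46) were lower as well. Beside them, the smooth muscle list had a median of -2.09, and of 0.48 in the Ballgown model, and their part in these values was not tested. Apart from MGLL, which ran from -2.18 to -1.86 when 1 library was left out, these values were not examined under the other settings. None of them was examined in the Ballgown model, and no adjusted p among them was under 0.05 in limma.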
